A study of Homo sapiens with 14 samples.

Results

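The transcriptomes of CAOV3 and SKOV3, human cell lines derived from ovarian cancers, were compared in the control state of a study of histone demethylase inhibition. The members were all genes measured in the 72 h GSK-J5 libraries of both lines, which are 6 of the 22 libraries of the series and are held in 4 of its 14 samples. Each line had 3 libraries (n = 3 each), all from cells given GSK-J5 at 2.5 µM for 72 h. CAOV3 cells were grown in DMEM/F12 medium and SKOV3 cells in McCoy's medium, in 12-well plates. GSK-J5 is the isomer used as the inactive control of GSK-J4, a cell-permeable inhibitor of KDM6A and KDM6B, the enzymes that remove methyl groups from lysine 27 of histone H3. No library without a compound was among those used, so both lines carried GSK-J5. Each line is a single cell line and each had its own medium, so line and medium cannot be told apart. Replicates 1 and 2 formed a first library set, with stripped medium named in the labels and RNA from the RNeasy mini kit. Replicate 3 formed a second set, with RNA from the RNeasy Plus kit and poly(A) enrichment. The labels do not state whether replicates came from separate cultures. The p-values therefore reflect only how far these libraries spread, which may be technical.

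Carcinoma cell lines spread along an axis between epithelial and mesenchymal states. Epithelial cells hold together through E-cadherin, claudins and keratin networks under transcription factors such as GRHL2 and OVOL1, while ZEB and SNAI factors repress these genes and mesenchymal cells make vimentin, N-cadherin and fibronectin. Tubal and ovarian tumours often keep PAX8, a lineage factor of the Müllerian duct, and shed MUC16, the CA125 antigen. SKOV3 is widely used as a line with amplified ERBB2. DNA was not measured in the data used here.

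Total counts were 31277490, 33919587 and 24141175 in the CAOV3 libraries, against 29683441, 32662356 and 24037007 in the SKOV3 libraries. Levels are given as CPM, counts scaled to library size with factors from the trimmed mean of M-values. A count of 0 in a library allows up to 3 counts, which came to between 0.0869 and 0.127 CPM on this scale, and these floors cover counting error only. Over genes, log CPM correlated at 0.975 to 0.981 within CAOV3 and at 0.959 to 0.982 within SKOV3, and at 0.700 to 0.724 between the lines. Of the markers of ovarian cancer epithelium, KRT7, KRT19 and PAX8 were found in all 6 libraries. WT1 was at or near the floor in CAOV3 and low but above it in SKOV3, and MUC16 was at or near the floor in SKOV3, as given below. Of the leukocyte markers, CD3E, CD68, MS4A1 and ITGAM had 0 counts in all 6 libraries, while CD14, a monocyte receptor for bacterial lipopolysaccharide, was at 53.8, 57.3 and 108 CPM in CAOV3 and at no more than 0.219 CPM in SKOV3. The summed level of the 10 leukocyte markers was 56.8 to 111 CPM in CAOV3 and 0.515 to 1.16 CPM in SKOV3, and that of the 10 fibroblast markers was 53 to 55.3 CPM in CAOV3 and 491 to 643 CPM in SKOV3. The part of other cells in these levels was not tested.

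Replicate 3 of SKOV3 stood apart from replicates 1 and 2 of that line. Among 12814 genes with at least 5 CPM in any library, 27 were over 4-fold above and 177 over 4-fold below both other SKOV3 libraries in replicate 3, against 0 and 3 genes for replicate 3 of CAOV3. KRT14, a basal keratin, was at 81.3, 96.0 and 0.0424 CPM in SKOV3 replicates 1, 2 and 3. HMOX1, which degrades haem, was at 48.6, 46.6 and 583 CPM in the same libraries. The same pattern was present in the GSK-J4 libraries of SKOV3, where KRT14 was at 59.0, 59.8 and 0.0803 CPM and HMOX1 at 75.2, 69.6 and 893 CPM. The library set was a term of the fit, but it is shared by both lines and does not take up a shift that only SKOV3 shows. Some results are therefore given with and without this library, and others only with it.

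**Figure D1:**
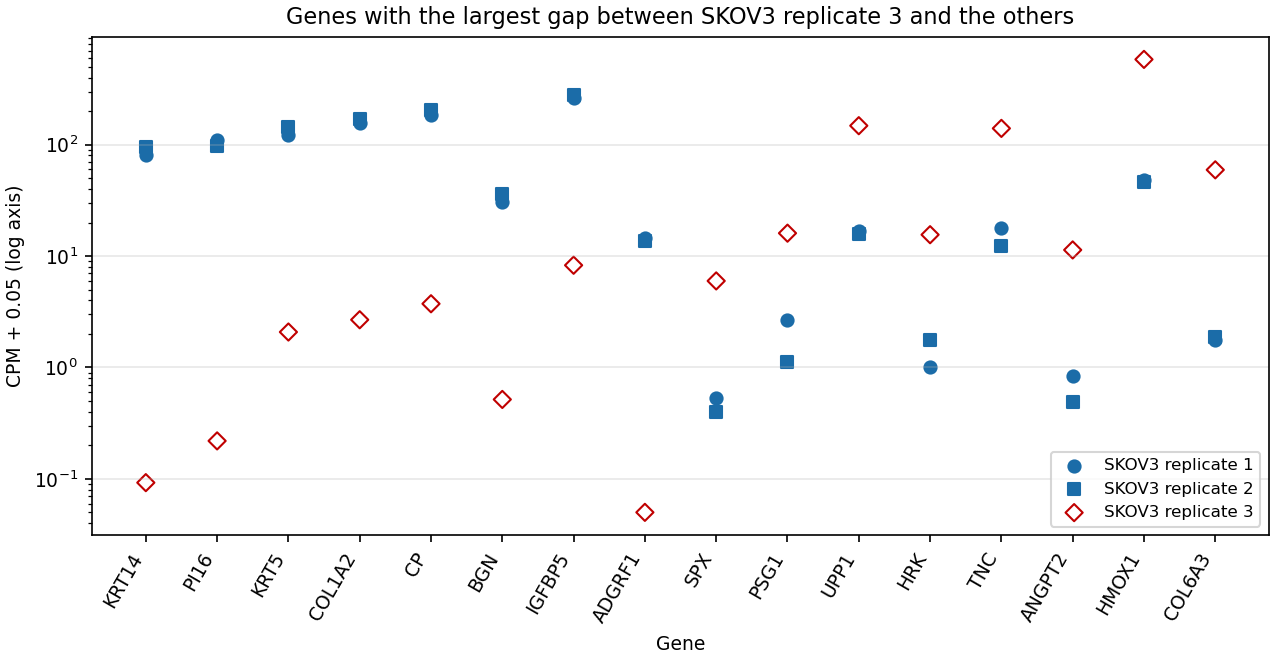
Levels in the 3 SKOV3 libraries (CPM + 0.05, log axis) of the 8 genes lowest and the 8 highest in replicate 3 relative to replicates 1 and 2. Blue points are replicates 1 and 2 and open red diamonds replicate 3; replicate 3 lies apart from both in each gene, and KRT14, PI16 and ADGRF1 are near 0 in replicate 3.

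Of 16940 genes that passed the filter on low counts, 5500 were higher in CAOV3 (32.5%) and 5416 were lower in CAOV3 (32%) at an adjusted p below 0.05 in edgeR's quasi-likelihood test, and a gene is called here if it passed this threshold. The median log2 fold change, CAOV3 over SKOV3, was 0.01, and the median of its absolute value was 0.99. Against a null of a 2-fold difference, 2949 genes were higher (17.4%) and 2524 lower (14.9%). Every CAOV3 library lay above every SKOV3 library in 5947 of the 16940 genes and below every one in 5977. Lines that do not overlap were thus common, and single genes below are to be read beside these counts. Leaving out replicate 1 of both lines left 3587 higher and 3467 lower genes, and leaving out replicate 2 left 4060 higher and 3549 lower. Because 64.4% of genes were called, the counts in gene lists are to be read beside the 32.5% higher and 32% lower, and no test of a list was made.

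Epithelial genes were mostly higher in CAOV3 and mesenchymal genes mostly lower. Of 30 epithelial genes tested, 26 were higher and 1 lower in CAOV3, with a median log2 fold change of 5.31. Of 24 mesenchymal genes, 2 were higher and 19 lower, with a median of -2.76. Without SKOV3 replicate 3 the counts were 26 higher and 2 lower for the epithelial genes (median 4.61), and 2 higher and 19 lower for the mesenchymal genes (median -2.66).

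CDH1 (chromosome 16, 68737225 to 68835548), which encodes E-cadherin, was at 208, 193 and 195 CPM in CAOV3, against 6.97, 10.1 and 0.466 CPM in SKOV3. All CAOV3 libraries lay above all SKOV3 libraries, and the log2 fold change was 5.40 (SE 0.761, adjusted p = 0.0012 in edgeR), or 4.55 without SKOV3 replicate 3. GRHL2, a transcription factor that keeps epithelial junction genes on, was at 34.1, 34.8 and 33.8 CPM in CAOV3 and had 0 counts in SKOV3, so it was at least 968-fold higher in CAOV3. ESRP1, a splicing factor that sets epithelial isoforms, was at 163, 166 and 190 CPM in CAOV3, against 0.549, 0.344 and 1.52 CPM in SKOV3 (log2 7.87, SE 0.34, adjusted p = 2.27e-06, or log2 8.52 without SKOV3 replicate 3). CLDN3, a tight junction claudin, was at 523, 487 and 537 CPM in CAOV3 and 3.78, 3.53 and 1.65 CPM in SKOV3 (log2 7.46). PRSS8, a membrane-anchored serine protease, was at 124, 117 and 121 CPM in CAOV3 and at 0, 0.0938 and 0 CPM in SKOV3, a 3405-fold ratio of counts with a 95% counting interval of 1165 to 16514. RAB25, a GTPase of epithelial vesicle recycling, was at 62.2, 68.4 and 58.3 CPM in CAOV3 and at 0, 0.0625 and 0 CPM in SKOV3.

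The epithelial genes did not all follow. DSP, the desmosomal plaque protein desmoplakin, was the called member in the other direction, at 169, 188 and 179 CPM in CAOV3 and 514, 494 and 390 CPM in SKOV3 (log2 -1.37, SE 0.12, adjusted p = 4.47e-05). KRT19, a simple-epithelium keratin, was at 674, 665 and 705 CPM in CAOV3 and 645, 923 and 42.6 CPM in SKOV3 (adjusted p = 0.397). The lines overlapped for KRT19, and its log2 value of 0.97 was -0.23 without SKOV3 replicate 3. ELF3 and MARVELD2 were not called either, but without SKOV3 replicate 3 ELF3 was called lower in CAOV3 in edgeR (log2 -0.96, adjusted p = 0.000177).

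Among the mesenchymal genes, VIM, the intermediate filament vimentin (chromosome 10, 17228259 to 17237593), was at 6.02, 7.36 and 7.68 CPM in CAOV3, against 1343, 1349 and 848 CPM in SKOV3. This was a 165-fold lower level in CAOV3 (log2 -7.37, SE 0.239, adjusted p = 9.48e-07). ZEB1, a repressor of epithelial genes, was at 0.507, 1.10 and 0.566 CPM in CAOV3 and 80.0, 69.1 and 58.6 CPM in SKOV3. FN1, the matrix protein fibronectin, was at 181, 178 and 138 CPM in CAOV3 and 11765, 12543 and 19055 CPM in SKOV3. Both genes were lower in every CAOV3 library than in any SKOV3 library, with log2 values of -6.56 for ZEB1 and -6.42 for FN1. CDH2, or N-cadherin, was 25.6-fold lower in CAOV3 (log2 -4.68, SE 0.177, adjusted p = 1.48e-06). The 2 members higher in CAOV3 were the smooth muscle contractile genes ACTA2 and CALD1, and SPARC, AXL and TAGLN were not called. CALD1 was at 174, 189 and 186 CPM in CAOV3, against 43.3, 42.3 and 65.5 CPM in SKOV3.

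**Figure D2:**
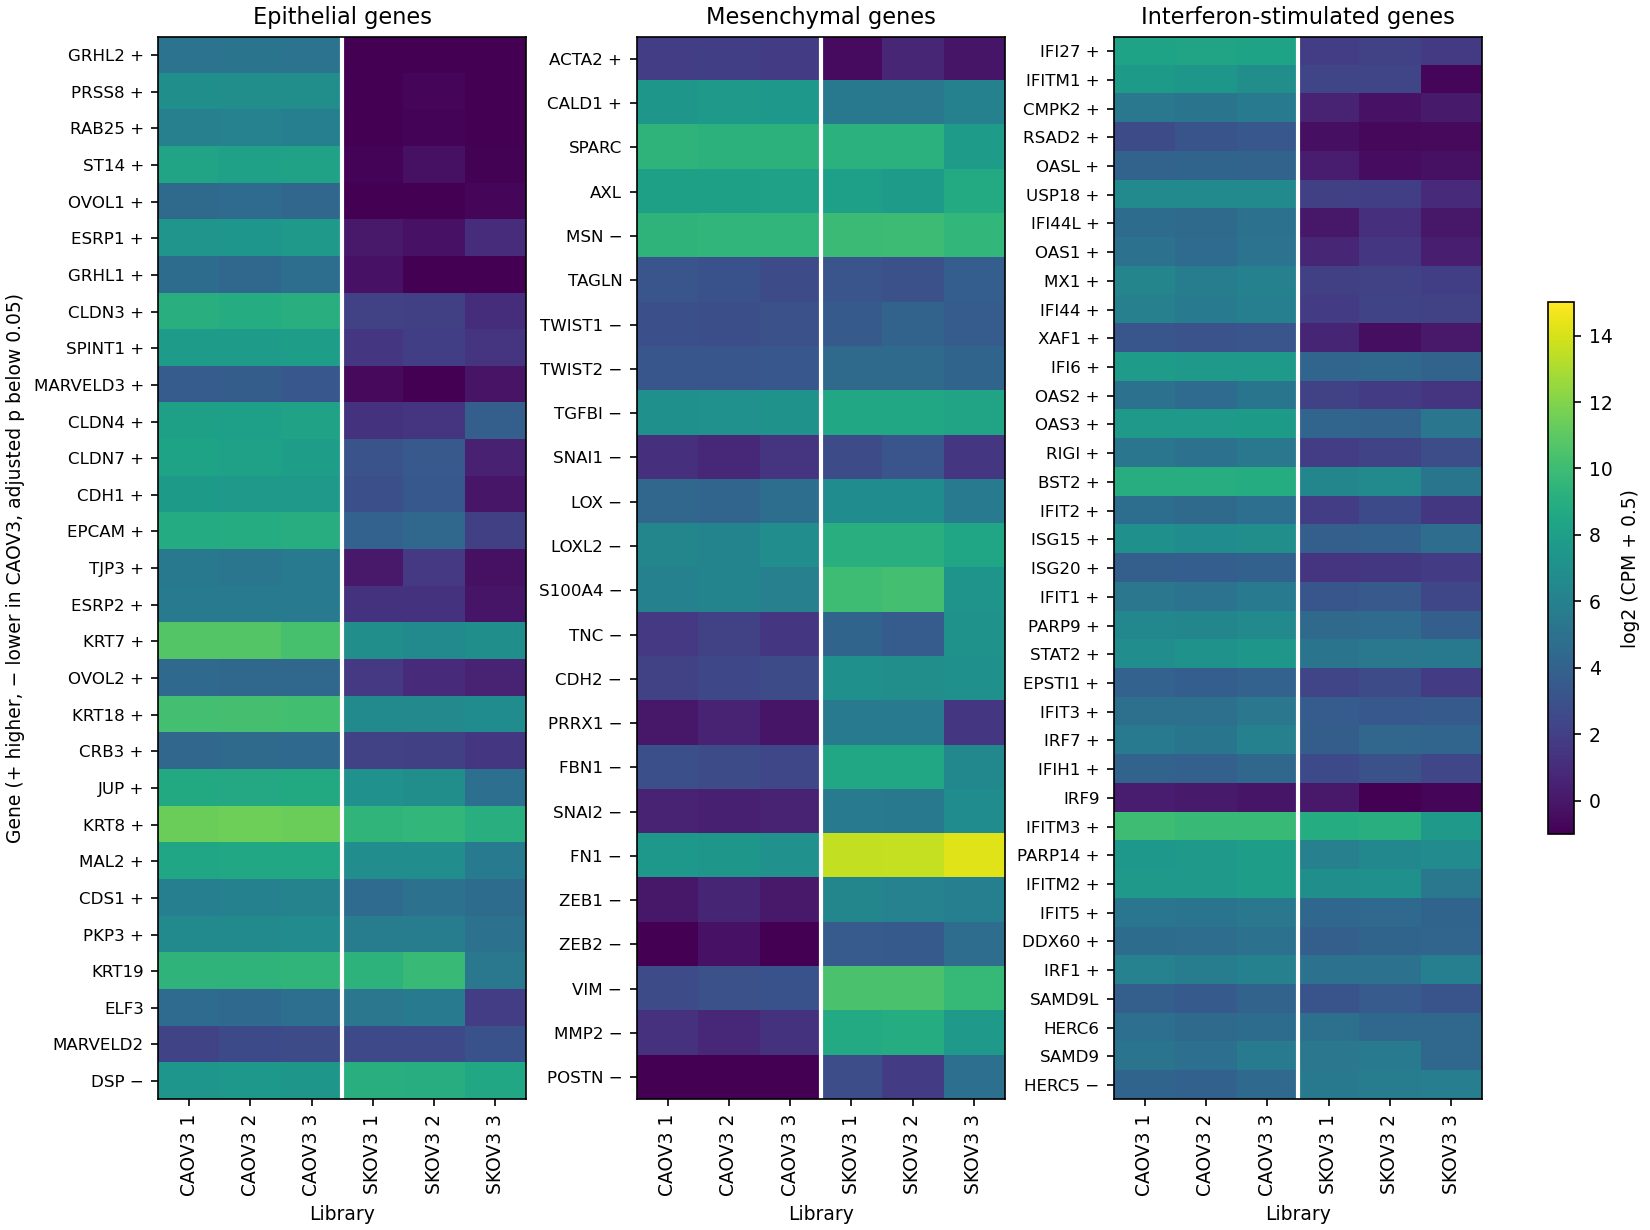
Level of members of the epithelial, mesenchymal and interferon-stimulated lists in each library, as log2(CPM + 0.5), with CAOV3 libraries left of the white line and SKOV3 libraries right of it. A plus or minus beside a symbol marks a gene called higher or lower in CAOV3; most epithelial and interferon-stimulated genes shown carry a plus, and 19 mesenchymal genes a minus.

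Cell adhesion genes were divided by family member, beside the 32.5% higher and 32% lower among all genes tested. Of 15 claudins, 10 were higher and 4 lower in CAOV3 (median 3.98, or 3.25 without SKOV3 replicate 3). CLDN1 went the other way from CLDN3, CLDN4 and CLDN7, with 0 counts in CAOV3 and 84.6, 69.2 and 153 CPM in SKOV3, at least 2966-fold lower in CAOV3. Of 9 classical and related cadherins, 4 were higher and 5 lower (3 and 5 of 10 without SKOV3 replicate 3). CDH6, a kidney and ovarian cadherin, had 0 counts in CAOV3 and 363, 339 and 116 CPM in SKOV3, at least 8635-fold lower in CAOV3. CDH16, the kidney cadherin, was at 0, 0 and 0.0404 CPM in CAOV3 and 297, 341 and 40.1 CPM in SKOV3. Of 14 keratins, 8 were higher and 3 lower (9 and 5 of 16 without SKOV3 replicate 3), and KRT7, a keratin of glandular epithelium, was at 1719, 1655 and 1291 CPM in CAOV3 and 117, 99.8 and 127 CPM in SKOV3 (log2 3.76, SE 0.168, adjusted p = 2.51e-06). KRT6A, a stress-inducible keratin that shares sequence with its paralogs, was at 78.6, 89.1 and 99.8 CPM in CAOV3 and had 0 counts in SKOV3. Of 48 clustered protocadherins, which are neuronal-type adhesion receptors encoded in tandem on chromosome 5, 8 were higher and 30 lower in CAOV3 (median -2.11). Their exons are similar in sequence, so the counts of single protocadherins are uncertain.

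Matrix gene families held calls in both directions, beside the 32.5% higher and 32% lower among all genes tested. Of 29 collagen genes, 8 were higher and 14 lower, of 21 integrins 6 were higher and 9 lower, and of 11 laminin chains 3 were higher and 4 lower. Without SKOV3 replicate 3 the lower genes numbered 14, 11 and 6, and the counts of higher genes were the same. COL5A1, a fibrillar collagen chain, was at 54.8, 49.2 and 35.7 CPM in CAOV3 and 1669, 1725 and 1282 CPM in SKOV3 (log2 -5.07, SE 0.123, adjusted p = 6.6e-07). COL1A2, a chain of type I collagen, averaged 2.39 CPM in CAOV3, while the SKOV3 libraries were at 155, 170 and 2.63 CPM. The third SKOV3 library lay within the CAOV3 range for COL1A2, and its log2 fold change of -4.68 was -6.21 without that library. Of 20 matrix proteases and inhibitors, 9 were higher and 11 lower. MMP1, interstitial collagenase, was at 0, 0 and 0.121 CPM in CAOV3 and 678, 667 and 180 CPM in SKOV3, a 16205-fold ratio with a 95% counting interval of 5545 to 78581. MMP14, the membrane-bound collagenase, averaged 85.4 CPM in CAOV3 and 0.443 CPM in SKOV3. All 6 tested fibroblast markers were lower in CAOV3, with a median of -5.02, or -7.79 without SKOV3 replicate 3. Of these, 2 had 0 counts in CAOV3, so they passed the filter only through SKOV3 and could only be lower.

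Of 22 genes of the ovarian and Müllerian lineage, 10 were higher (45.5%) and 8 lower (36.4%) in CAOV3, beside 32.5% and 32% of all genes tested. PAX8 (chromosome 2, 113215997 to 113278950) was at 33.6, 38.9 and 36.8 CPM in CAOV3, against 179, 158 and 212 CPM in SKOV3 (log2 -2.32, SE 0.131, adjusted p = 6.09e-06). WT1, a transcription factor used to type serous carcinoma, was at or near the floor in CAOV3, at 0, 0 and 0.121 CPM. In SKOV3 it was low but above the floor, at 0.824, 1.22 and 1.02 CPM. WT1 was called (adjusted p = 0.00675), but not when replicate 1 or replicate 2 was left out. LHX1, a factor of kidney and Müllerian duct development, had 0 counts in CAOV3 and averaged 13.1 CPM in SKOV3. MECOM, a zinc finger factor, was at 0, 0.116 and 0.485 CPM in CAOV3 and 471, 499 and 115 CPM in SKOV3. Oestrogen receptor ESR1 was at 2.25, 2.46 and 1.94 CPM in CAOV3 and 93.9, 115 and 21.8 CPM in SKOV3 (log2 -4.89, SE 0.406, adjusted p = 4e-05).

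The antigens MUC16, WFDC2 and MUC1 were higher in CAOV3. MUC16 was at 9.44, 11.1 and 9.17 CPM in CAOV3, against 0.378, 0 and 0 CPM in SKOV3 (log2 6.29, SE 0.858, adjusted p = 0.000439). WFDC2, the HE4 antigen, was at 348, 309 and 310 CPM in CAOV3 and 1.24, 0.813 and 0.169 CPM in SKOV3 (log2 8.77). MUC1, a membrane mucin, was at 1478, 1503 and 1987 CPM in CAOV3 and 34.2, 37.9 and 3.47 CPM in SKOV3, and its log2 value of 6.40 was 5.37 without SKOV3 replicate 3. No SKOV3 library reached a CAOV3 library for these genes. In a list of 22 antigens that antibodies in cancer treatment are directed at, 13 were higher (59.1%) and 7 lower (31.8%).

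Genes around ERBB2 on chromosome 17 were lower in CAOV3, and none of the list was higher. Of 15 tested genes, 13 were lower (median log2 -2.21), and 14 were lower without SKOV3 replicate 3. ERBB2 (39687914 to 39730426), a receptor tyrosine kinase of the EGF receptor family, was at 154, 142 and 155 CPM in CAOV3, against 12187, 15258 and 2542 CPM in SKOV3. Every SKOV3 library exceeded every CAOV3 library, and ERBB2 was 53.7-fold lower in CAOV3 (log2 -5.75, SE 0.594, adjusted p = 0.000212), or 92.8-fold lower without SKOV3 replicate 3. MIEN1, which overlaps the end of ERBB2 (39728496 to 39730787), was at 20.0, 19.1 and 19.3 CPM in CAOV3 and 2073, 2367 and 286 CPM in SKOV3, 60.7-fold lower in CAOV3, or 114-fold lower without SKOV3 replicate 3. The strand setting of the counting is not given, so reads of these overlapping genes may be shared. PPP1R1B, which encodes the phosphatase inhibitor DARPP-32, averaged 0.472 CPM in CAOV3 and 554 CPM in SKOV3, and was 1141-fold lower in CAOV3. The outer genes differed less: CDK12, a transcription elongation kinase, was at 45.0, 61.6 and 51.4 CPM in CAOV3 and 167, 153 and 172 CPM in SKOV3 (log2 -1.64), and MED24 had a log2 value of -0.48.

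GRB7, an adaptor protein next to MIEN1, was not called. It was at 24.1, 26.7 and 33.6 CPM in CAOV3 and 79.9, 107 and 12.7 CPM in SKOV3, so that SKOV3 replicate 3 lay below CAOV3 and the groups overlapped (log2 -0.91, SE 0.696, adjusted p = 0.294). Without that library GRB7 was 3.68-fold lower in CAOV3. In the GSK-J4 libraries of SKOV3, ERBB2 was at 11836, 13099 and 2534 CPM, so the lower level in replicate 3 was present under both compounds.

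**Figure D3:**
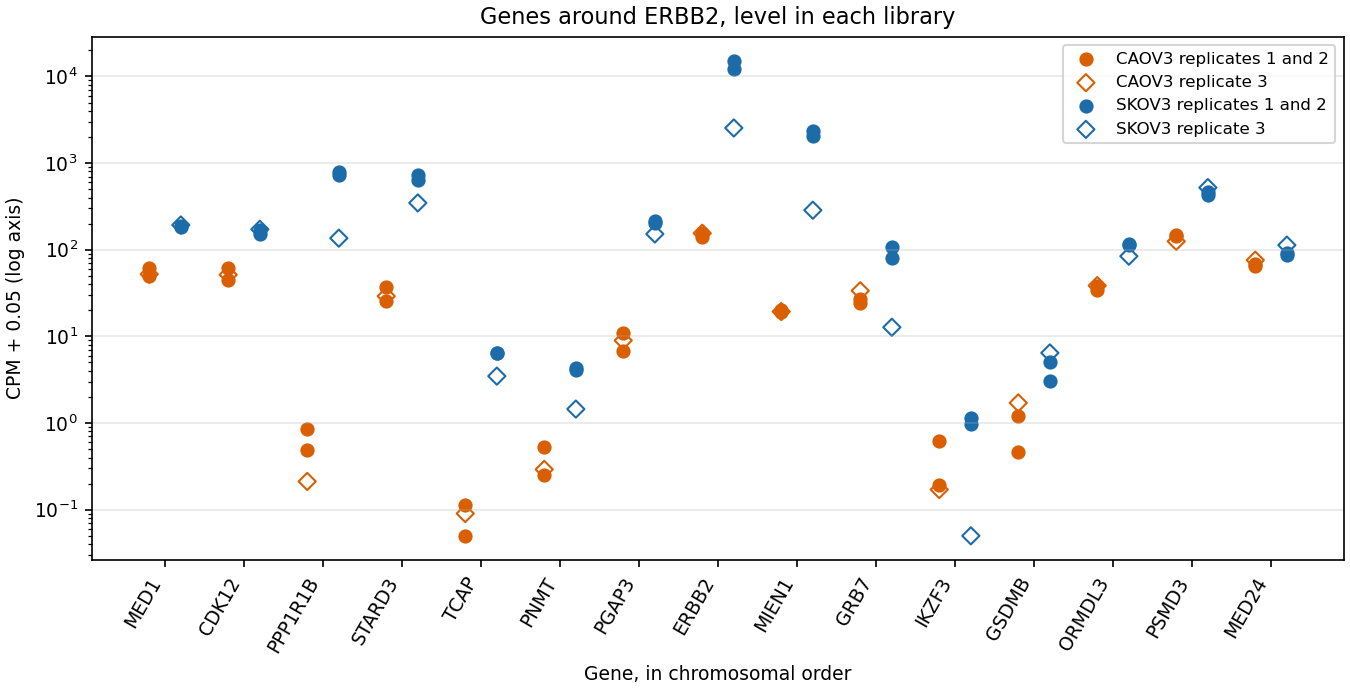
Level in each library (CPM + 0.05, log axis) of the 15 tested genes around ERBB2, in chromosomal order, with CAOV3 in orange left of SKOV3 in blue and replicate 3 as open diamonds. The gap between the lines is widest for PPP1R1B, TCAP, MIEN1 and ERBB2, and the SKOV3 diamond is the lowest SKOV3 point for ERBB2, MIEN1 and GRB7.

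Other receptors of the family were at other levels. ERBB3, a receptor with little kinase activity of its own that pairs with ERBB2, was at 116, 121 and 111 CPM in CAOV3 and 2.23, 1.38 and 1.02 CPM in SKOV3 (log2 6.25, SE 0.24, adjusted p = 1.59e-06). EGFR averaged 279 CPM in CAOV3 and 260 CPM in SKOV3 and was not called (log2 0.10, SE 0.109, adjusted p = 0.421). NRG1, a ligand of ERBB3, was at 4.44, 2.06 and 2.14 CPM in CAOV3 and 49.7, 30.6 and 50.1 CPM in SKOV3 (log2 -3.92). Among 9 EGF family ligands 4 were higher and 1 lower. Among 42 receptor tyrosine kinases 14 were higher (33.3%) and 20 lower (47.6%), beside 32.5% and 32% of all genes tested. Of the FGF receptors, FGFR2 and FGFR1 differed in opposite directions. FGFR2 averaged 73.5 CPM in CAOV3 and 5.77 CPM in SKOV3, and FGFR1 averaged 7.64 CPM in CAOV3 and 163 CPM in SKOV3.

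Regulators of the G1 phase included genes that were absent from the counts of one line. CDKN2A (chromosome 9, 21967753 to 21995301), which encodes the CDK4 and CDK6 inhibitor p16 and the MDM2 inhibitor p14ARF, was at 216, 206 and 187 CPM in CAOV3 and had 0 counts in SKOV3, at least 5772-fold higher in CAOV3. Its neighbour CDKN2B, a related inhibitor, was at 15.6, 15.5 and 11.6 CPM in CAOV3 and also had 0 counts in SKOV3. MTAP, the next gene, was at 21.1, 21.4 and 23.4 CPM in CAOV3 and 27.6, 30.3 and 34.7 CPM in SKOV3 (log2 -0.49, SE 0.135, adjusted p = 0.0142), and was not called when replicate 1 or replicate 2 was left out. The change in levels was thus sharp between neighbours: of 9 tested genes of this region, 4 were higher and 3 lower in CAOV3, and only CDKN2A, CDKN2B and CDKN2B-AS1 had 0 counts in SKOV3. RB1, the retinoblastoma protein that p16 keeps active, showed the opposite arrangement, with 0 counts in CAOV3 and an average of 144 CPM in SKOV3, at least 4395-fold lower in CAOV3. CCND3, cyclin D3, was at 897, 860 and 764 CPM in CAOV3 and 45.9, 44.1 and 68.2 CPM in SKOV3 (log2 4.02, SE 0.189, adjusted p = 3.09e-06). Over the list of G1 cyclins, kinases and inhibitors, 11 of 22 were higher (50%) and 7 lower (31.8%).

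Proliferation genes were higher in CAOV3. Of 30 mitotic genes 26 were higher and 1, the checkpoint kinase BUB1B, was lower (median log2 1.32, or 1.17 without SKOV3 replicate 3). Of 30 replication genes 28 were higher and 0 lower (median 1.69, or 2.11 with 29 higher without that library). MKI67, the Ki-67 antigen, was at 293, 319 and 294 CPM in CAOV3 and 139, 116 and 98.7 CPM in SKOV3 (log2 1.37). MCM7, a subunit of the replicative helicase, was at 353, 338 and 286 CPM in CAOV3 and 41.4, 34.8 and 85.9 CPM in SKOV3 (log2 2.71, SE 0.294, adjusted p = 0.000153). RRM2, a subunit of ribonucleotide reductase, was at 269, 254 and 245 CPM in CAOV3 and 25.2, 16.3 and 70.5 CPM in SKOV3. SKOV3 replicate 3 was the highest SKOV3 library for MCM7 and RRM2 and the lowest for MKI67, and all stayed under the CAOV3 range.

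Of 17 genes of the BCL2 family, which control cell death at mitochondria, 4 were higher (23.5%) and 6 lower (35.3%) in CAOV3. The shares over all genes tested were 32.5% and 32%.

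Interferon-stimulated genes were higher in CAOV3 in 33 of 38 tested, and 1 was lower. The median log2 fold change was 2.41, or 2.18 without SKOV3 replicate 3. IFI27 was at 307, 320 and 306 CPM in CAOV3 and 3.29, 3.78 and 2.75 CPM in SKOV3 (log2 6.57, SE 0.148, adjusted p = 6.6e-07). IFITM1, a membrane protein that restricts virus entry, was at 206, 174 and 122 CPM in CAOV3 and 4.67, 4.53 and 0.0847 CPM in SKOV3 (log2 6.04, or 5.37 without SKOV3 replicate 3). MX1, an antiviral GTPase, was at 78.7, 54.4 and 64.4 CPM in CAOV3 and 3.60, 3.88 and 3.43 CPM in SKOV3 (log2 4.18). The lines did not overlap for these genes. HERC5, a ligase that attaches ISG15 to proteins, was the member lower in CAOV3, at an average of 18.2 CPM against 51.8 CPM in SKOV3 (log2 -1.52, SE 0.155, adjusted p = 9.89e-05).

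The promoters of these genes were read from RefSeq (GRCh38.p14) as windows of 300 bases, 250 before the start of transcription and 50 after it. The core of the interferon-stimulated response element, read as GAAA, any 2 bases and GAAA on either strand, was in 24 of 36 windows (66.7%) of the interferon-stimulated genes higher in CAOV3, of which 26 of 33 had a window. It was in 3.58% of all 34961 windows and in 2.82% of the windows of genes tested. Only members higher in CAOV3 were counted. HERC5, the member lower in CAOV3, also held 3 matches in its window, so the motif was not particular to the higher members. The windows of CMPK2, another member of the list, held 0. A match is a run of letters and not a measured binding site. The 250 bases before the start are shown for IFI27 (chr14:94110486-94110735, plus strand, the first of 2 windows) and IFITM1 (chr11:313790-314039, plus strand), as genes with the motif that were among the highest in the list. Capitals mark the matches, which in IFI27 begin at -108 and -95 and in IFITM1 at -40 relative to the start. Another match in the IFITM1 window runs past the bases shown and is not marked.
IFI27: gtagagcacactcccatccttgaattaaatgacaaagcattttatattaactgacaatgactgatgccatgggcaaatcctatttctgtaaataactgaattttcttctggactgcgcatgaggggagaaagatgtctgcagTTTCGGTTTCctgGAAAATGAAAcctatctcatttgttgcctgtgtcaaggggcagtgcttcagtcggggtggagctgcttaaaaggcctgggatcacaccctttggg
IFITM1: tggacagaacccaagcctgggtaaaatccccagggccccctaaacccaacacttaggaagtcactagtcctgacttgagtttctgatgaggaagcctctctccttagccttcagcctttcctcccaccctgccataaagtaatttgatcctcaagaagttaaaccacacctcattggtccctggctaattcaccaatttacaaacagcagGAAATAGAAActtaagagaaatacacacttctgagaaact

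In the same table, the E-box CACCTG or CAGGTG, the letters that ZEB and SNAI factors bind, was in 8 of 15 windows (53.3%) of the epithelial genes higher in CAOV3, of which 11 of 26 had a window. It was in 20.6% of all windows and in 19.2% of those of genes tested. Only members higher in CAOV3 were counted. DSP, the member lower in CAOV3, also held 2 matches in its window, so the E-box was not particular to the higher members. RAB25, which was near 0 in SKOV3, holds 1 such E-box in the 250 bases shown, in capitals at -41 relative to the start, and another in its window beyond them (chr1:156060910-156061159, plus strand).
RAB25: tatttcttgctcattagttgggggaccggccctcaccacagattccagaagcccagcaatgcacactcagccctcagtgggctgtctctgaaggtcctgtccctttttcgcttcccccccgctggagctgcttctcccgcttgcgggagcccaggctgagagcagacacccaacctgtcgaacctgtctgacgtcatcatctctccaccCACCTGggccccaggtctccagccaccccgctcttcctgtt

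Of 22 antigen presentation genes, 9 were higher (40.9%) and 4 lower (18.2%) in CAOV3, beside 32.5% and 32% of all genes tested. CD74, the invariant chain of class II molecules, was at 290, 272 and 315 CPM in CAOV3 and 0.343, 0.50 and 0.678 CPM in SKOV3 (log2 9.18, SE 0.193, adjusted p = 6.6e-07). B2M, the light chain of class I molecules, averaged 1018 CPM in CAOV3 and 1056 CPM in SKOV3 and was not called, though it was called lower in CAOV3 without SKOV3 replicate 3 (log2 -0.49). HLA-B, a class I heavy chain, was at 26.3, 144 and 59.9 CPM in CAOV3 and 11.5, 9.44 and 8.39 CPM in SKOV3. Its alleles differ from the genome used for alignment and it resembles other class I genes, so its level is uncertain. HLA-B was called higher in CAOV3, but not without SKOV3 replicate 3 (adjusted p = 0.147 in edgeR). Of 19 cytokines and chemokines, 9 were higher and 3 lower, and IL6 was at 9.85, 7.24 and 6.18 CPM in CAOV3 and 0.103, 0.125 and 0.381 CPM in SKOV3.

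Metallothioneins, small proteins that bind zinc and copper, were among the most different genes. Of 12 members of a list of metallothioneins and zinc carriers, 9 were higher and 2, the zinc carriers SLC30A1 and SLC39A10, were lower. In SKOV3, 4 of the 12 had 0 counts and 2 had 1 to 3 counts, so these passed the filter only through CAOV3 and could only be higher there. The median log2 fold change was 9.28, or 7.87 with genes that had at most 3 counts in SKOV3 set at their bound or count ratio. MT1G was at 771, 884 and 768 CPM in CAOV3 and had 0 counts in SKOV3, at least 22961-fold higher in CAOV3. MT2A, the metallothionein with the highest mean level in both lines, was at 3544, 3598 and 2113 CPM in CAOV3 and 268, 257 and 301 CPM in SKOV3 (log2 3.45, SE 0.212, adjusted p = 8.88e-06). Metallothionein genes are near copies of each other, so the split of counts between them is uncertain. The metal response element core was read as TGCACNC or TGCGCNC on either strand. Of 9 list members higher in CAOV3, 4 had a window, and all 4 windows held the core. It was in 29.6% of all windows and 37% of the windows of genes tested. The zinc carriers lower in CAOV3 also held matches: SLC30A1 had 2, and SLC39A10 had 1 in a window and 0 in another. MT1H, at an average of 97.5 CPM in CAOV3 and 0 counts in SKOV3, holds 8 matches, in capitals in the 250 bases before its start (chr16:56669564-56669813, plus strand).
MT1H: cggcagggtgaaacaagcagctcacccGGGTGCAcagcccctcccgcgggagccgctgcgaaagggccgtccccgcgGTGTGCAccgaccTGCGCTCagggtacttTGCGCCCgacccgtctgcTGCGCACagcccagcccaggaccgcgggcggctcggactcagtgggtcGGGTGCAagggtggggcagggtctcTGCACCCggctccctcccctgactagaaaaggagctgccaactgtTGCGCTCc

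Of 15 kallikrein-related peptidases, secreted serine proteases encoded together on chromosome 19, 9 were tested and all 9 were higher in CAOV3. Among these 9, 7 had 0 counts in SKOV3 and 1 had 1 to 3 counts. Such genes passed the filter only through CAOV3 and could only be higher there. The median log2 fold change was 10.28, or 7.89 with bounds. KLK5 was at 343, 265 and 303 CPM in CAOV3 and had 0 counts in SKOV3, at least 8531-fold higher in CAOV3. KLK7 was at 83.0, 62.1 and 81.4 CPM in CAOV3 and had 0 counts in SKOV3.

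Genes of redox control were lower in CAOV3. Of 27 targets of NRF2, the transcription factor of the oxidative stress response, and aldo-keto reductases, 17 were lower and 2, GCLM and KEAP1, were higher, neither of them past the threshold with a replicate block (median log2 -0.85, or -0.70 without SKOV3 replicate 3). SLC7A11, which imports cystine for glutathione synthesis, was at 49.2, 49.0 and 45.3 CPM in CAOV3 and 793, 707 and 598 CPM in SKOV3 (log2 -3.86, SE 0.119, adjusted p = 8.75e-07). AKR1C1, a steroid-reducing aldo-keto reductase with close paralogs, was at 8.14, 7.10 and 4.36 CPM in CAOV3 and 423, 484 and 564 CPM in SKOV3 (log2 -6.24). HMOX1 was at 30.2, 24.6 and 23.6 CPM in CAOV3, below all SKOV3 libraries, and its adjusted p of 0.0841 in edgeR was 0.00045 without SKOV3 replicate 3, at a log2 value of -0.80 in place of -1.93.

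Lipid synthesis genes were higher in CAOV3 in 26 of 30 tested, and 3 were lower, SC5D, ACACA and ACLY (median log2 1.69, or 1.81 without SKOV3 replicate 3). SCD, which desaturates fatty acids, was at 2288, 2463 and 2579 CPM in CAOV3 and 239, 251 and 122 CPM in SKOV3 (log2 3.65, SE 0.243, adjusted p = 1.28e-05). FADS2, a desaturase of polyunsaturated fatty acids, was at 1004, 962 and 1034 CPM in CAOV3 and 47.1, 48.3 and 43.2 CPM in SKOV3 (log2 4.44). Of 30 glycolysis and hypoxia genes, 10 were higher (33.3%) and 12 lower (40%), near the 32.5% and 32% of all genes tested. Without SKOV3 replicate 3, 10 were higher and 15 lower. SLC2A3, the glucose transporter GLUT3, was at 506, 461 and 658 CPM in CAOV3 and 0.0686, 0.281 and 0.720 CPM in SKOV3, while VEGFA was at 45.9, 41.6 and 50.8 CPM in CAOV3 and 406, 349 and 462 CPM in SKOV3.

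The targets of the active compound differed modestly between the lines. KDM6A, or UTX (chromosome X, 44873177 to 45112602), was at 26.3, 22.2 and 23.5 CPM in CAOV3, against 42.8, 43.4 and 33.6 CPM in SKOV3 (log2 -0.73, SE 0.144, adjusted p = 0.00294). KDM6B, or JMJD3 (chromosome 17, 7839904 to 7854796), was at 53.6, 48.7 and 57.1 CPM in CAOV3 and 33.7, 35.6 and 47.1 CPM in SKOV3 (log2 0.47, SE 0.126, adjusted p = 0.0124). KDM6A was lower and KDM6B higher in every CAOV3 library than in any SKOV3 library. Of 16940 genes tested, 5977 were lower and 5947 higher in this way. Neither KDM6A nor KDM6B stayed past the threshold when replicate 1 or replicate 2 was left out. EZH2, the methyltransferase that places the mark these enzymes remove, was at 48.3, 53.2 and 53.1 CPM in CAOV3 and 22.5, 21.9 and 18.5 CPM in SKOV3 (log2 1.30, SE 0.136, adjusted p = 0.000112). SMARCC1, a core subunit of SWI/SNF remodelling complexes, was at 122, 130 and 119 CPM in CAOV3 and 5.59, 5.72 and 5.51 CPM in SKOV3 (log2 4.46). Its paralog SMARCC2 averaged 134 CPM in CAOV3 and 91.9 CPM in SKOV3. Over the list of KDM6, Polycomb and SWI/SNF genes, 14 of 31 were higher (45.2%) and 12 lower (38.7%).

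HOX genes, which record body position and are kept silent by Polycomb where unused, differed by cluster. In the whole list 17 of 35 were higher (48.6%) and 12 lower (34.3%), beside 32.5% and 32% of all genes tested. In the HOXB cluster HOXB2 to HOXB9 were lower in CAOV3, and HOXB8 was at 1.93, 3.59 and 1.33 CPM in CAOV3 and 157, 159 and 59.5 CPM in SKOV3 (log2 -5.73, SE 0.247, adjusted p = 2.27e-06). In the HOXC cluster 8 of 9 tested genes were higher, among them HOXC6, at 23, 24 and 23.2 CPM in CAOV3 and 0.343, 0.125 and 0.169 CPM in SKOV3 (log2 6.76, SE 0.34, adjusted p = 3.85e-06). Of 17 imprinted genes tested, 9 were higher and 5 lower, and NDN, expressed from the paternal copy, was at 29.2, 27.3 and 23.1 CPM in CAOV3 and had 0 counts in SKOV3.

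The remaining lists held calls in both directions, beside the 32.5% higher and 32% lower among all genes tested, or had few tested members. TGF-beta and BMP signalling had 5 higher and 15 lower of 29, WNT and NOTCH signalling 13 and 13 of 29, and YAP target genes 6 and 7 of 22. Without SKOV3 replicate 3 the lower genes of these lists numbered 17, 15 and 10, and the counts of higher genes were the same. In the signalling lists BMP4 averaged 33.7 CPM in CAOV3 and 1.91 CPM in SKOV3, and the NOTCH ligand JAG1 averaged 3.83 CPM in CAOV3 and 223 CPM in SKOV3. S100 proteins and annexins had 7 higher and 14 lower of 23, and S100A4, a calcium-binding protein of motile cells, was at 65.2, 75.6 and 62.3 CPM in CAOV3 and 1045, 1184 and 152 CPM in SKOV3 (log2 -3.15, or -3.99 without SKOV3 replicate 3). ALDH1 and retinoid genes had 9 higher and 3 lower of 20, steroid and nuclear receptors 9 and 8 of 22, and ABC transporters 4 and 7 of 14. ALDH1A1, a retinal dehydrogenase, was at 0, 0.174 and 0.121 CPM in CAOV3 and 16.3, 18.1 and 8.81 CPM in SKOV3. Of 37 cancer-testis antigens, PRAME and CT45A1 passed the filter and both were higher in CAOV3. CT45A1 had 0 counts in SKOV3, so it passed the filter only through CAOV3 and could only be higher there. The leukocyte list had 2 higher and 1 lower of 3 tested, and the endothelial list 1 and 1 of 6.

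**Figure D4:**
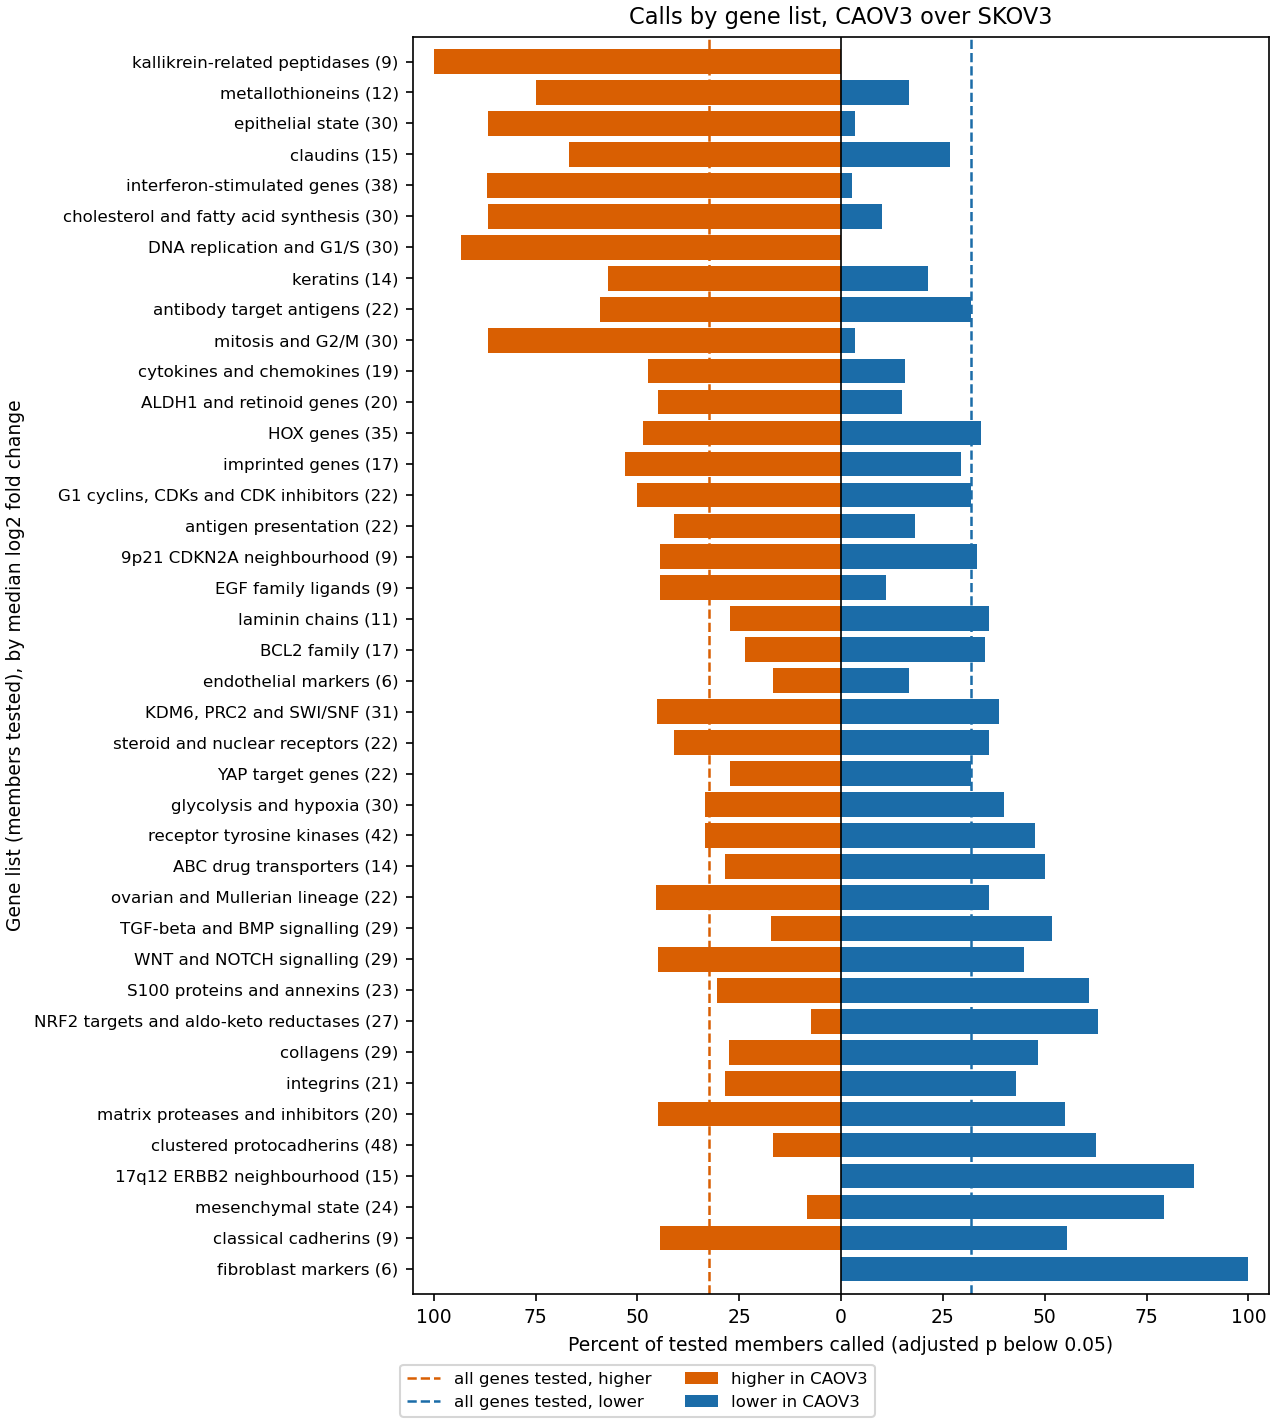
Percent of the tested members of 40 gene lists with at least 6 tested members that were called higher in CAOV3 (orange, to the left) or lower in CAOV3 (blue, to the right), ordered by median log2 fold change. Dashed lines mark the shares over all genes tested, 32.5% and 32%; replication, mitosis, epithelial, interferon-stimulated and lipid synthesis genes exceed the line for higher genes, and mesenchymal and ERBB2 neighbourhood genes that for lower genes.

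Some genes were found in one line only, here meaning at least 5 CPM in all 3 libraries of a line and at most 3 counts in each library of the other. In CAOV3 only, 174 genes were found (1.03% of genes tested), of which 158 are protein coding and 123 had 0 counts in every SKOV3 library. In SKOV3 only, 97 genes were found (0.573%), of which 83 are protein coding and 74 had 0 counts in every CAOV3 library. Without replicate 3 of both lines the SKOV3 count was 149, and without SKOV3 replicate 3 alone the counts were 207 for CAOV3 and 137 for SKOV3. After the metallothioneins and KLK5, the CAOV3 genes with the highest levels included TMEM30B, a flippase subunit, at 269, 279 and 299 CPM, and OLR1, a scavenger receptor, at a mean of 110 CPM. UQCRH, a subunit of respiratory complex III, was also among them at a mean of 327 CPM, but its retrocopy UQCRHL is nearly identical and the assignment of reads is uncertain. Among the SKOV3 genes were MMP1, CDH6, CDH16 and STK11, the kinase LKB1 that activates AMPK. STK11 had 0 counts in CAOV3 and was at 190, 186 and 214 CPM in SKOV3, at least 5905-fold lower in CAOV3. CA12, a carbonic anhydrase, had 0 counts in CAOV3 and averaged 146 CPM in SKOV3.

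In OVCAR-3 under GSK-J5, 63 of the 174 genes found in CAOV3 only were expressed by the same minimum and 38 were not found. Of the 97 genes found in SKOV3 only, 35 were expressed in OVCAR-3 and 25 were not found. CDH6, for example, was at 1415, 1457 and 1004 CPM in OVCAR-3. Among 7435 genes called with a fitted difference over 2-fold, OVCAR-3 was nearer to CAOV3 in 4040 (54.3%) and nearer to SKOV3 in 3395. Promoters of genes found in CAOV3 only held a mean of 18.4 CG pairs per window (175 windows of 117 genes). Those of genes found in SKOV3 only held a mean of 16.6 (88 windows of 67 genes). The mean was 23.8 for genes tested and 16.9 over all windows.

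Several of the genes with no counts lay side by side. Runs were counted, by a rule chosen after the values were seen, as at least 3 neighbouring protein-coding genes that all had at least 1 CPM in every library of one line and at most 3 counts in each library of the other. Of 11570 protein-coding genes with at least 1 CPM in every SKOV3 library, 168 had at most 3 counts in each CAOV3 library. In CAOV3 7 runs with 43 genes were not found. The longest held 14 genes on chromosome 4 (155342658 to 159360174 on GRCh38), from MAP9 through PDGFC, a platelet-derived growth factor, to RAPGEF2, a guanine exchange factor. All 14 had 0 counts in CAOV3 and means of 3.31 to 127 CPM in SKOV3, and 12 had at least 1 CPM in OVCAR-3. The genes on either side, LRAT and NAF1, were found in CAOV3 at means of 1.86 and 13.5 CPM. Another run on chromosome 3 (188153284 to 192918161) held LPP, P3H2, CLDN1, IL1RAP, CCDC50, FGF12 and MB21D2, with 0 counts in CAOV3, means of 4.35 to 133 CPM in SKOV3 and BCL6 at a mean of 23.3 CPM in CAOV3 beside it. GUF1, GNPDA2 and COX7B2 on chromosome 4 also had 0 counts in CAOV3. The other 4 runs were of zinc finger genes on chromosome 19.

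Of 12231 protein-coding genes with at least 1 CPM in every CAOV3 library, 335 had at most 3 counts in each SKOV3 library. In SKOV3 6 runs with 24 genes were not found. They included KLK1, KLK4, KLK5, KLK6, KLK7 and KLK8 on chromosome 19 (50819148 to 51002711), with means of 1.35 to 303 CPM in CAOV3 and 0 counts in SKOV3. MT1M, MT1A, MT1F, MT1G and MT1H on chromosome 16 (56632233 to 56671129) had means of 15.9 to 808 CPM in CAOV3 and 2 counts in all in SKOV3. The others held HOXC13, HOXC12 and HOXC11, then RIPK3, NFATC4 and NYNRIN, then A2M, OLR1 and TMEM52B, and last 4 CT45A genes, which are near copies. DNA copy number was not measured.

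**Figure D5:**
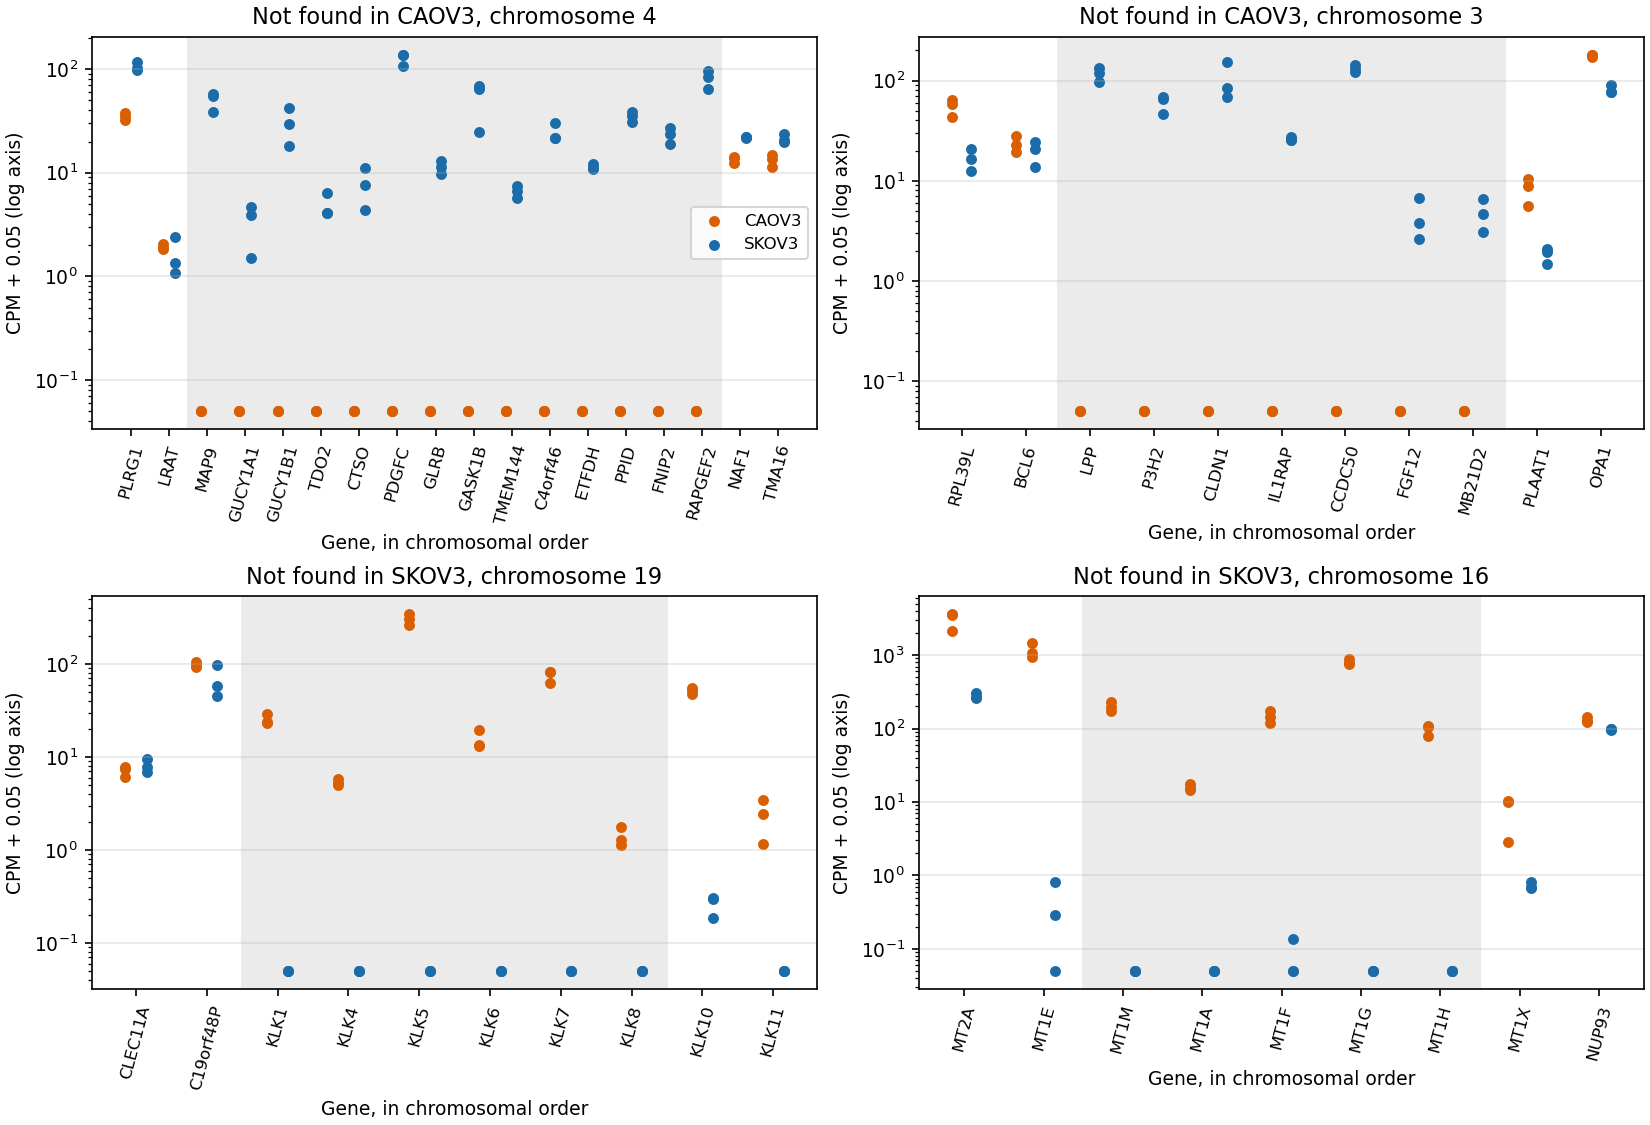
Level in each library (CPM + 0.05, log axis) of genes in 4 runs and of their neighbours, in chromosomal order, with CAOV3 in orange left of SKOV3 in blue. The shaded runs sit at 0 in CAOV3 for chromosomes 4 and 3 and at or near 0 in SKOV3 for chromosomes 19 and 16. The flanking genes shown have counts in the line that lacks the run, apart from KLK11. Low levels in SKOV3 extend past the runs, however: KLK10, MT1E and MT1X reach no more than 0.254, 0.762 and 0.755 CPM there.

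Shifts were also seen over longer stretches, beside a median of -0.04 and quartiles of -0.51 and 0.33 for the median log2 fold changes of 291 windows of 10 Mb. The highest window was the first 10 Mb of chromosome 12 (1 to 10000000), where 72 of 84 genes were higher in CAOV3 and 2 lower, with a median of 2.22. Next came chromosome 22 from 10000001 to 20000000, with 29 of 33 higher (median 1.79), and chromosome X from 100000001 to 110000000, with 41 of 62 higher (median 1.65). The lowest was chromosome 19 from 20000001 to 30000000, which holds zinc finger genes, with 26 of 32 lower (median -2.79). It was followed by chromosome 12 from 30000001 to 40000000, with 13 of 19 lower (median -1.70), and chromosome 4 from 150000001 to 160000000, with 22 of 33 lower (median -1.59). In the same-numbered pairs of libraries, compared with a pseudocount of 0.5, the median of the first chromosome 12 window was 2.01, 2.07 and 1.88. That of the chromosome 19 window was -1.87, -1.52 and -1.73, nearer to 0 than in the fit, and in the pair of replicate 2 the windows of chromosome 12 (-1.66) and chromosome 4 (-1.64) were lower. By chromosome the medians ran from -0.64 for chromosome 13 to 0.87 for chromosome 7, where 400 of 652 genes were higher and 87 lower.

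The directions of the calls were compared with libraries that the calls did not use. The GSK-J4 libraries are of the same lines and library sets and share the shift of SKOV3 replicate 3. Agreement there is therefore no independent check of what differs between the lines. Of 10673 called genes with a value in the GSK-J4 libraries of the same lines, 10632 (99.6%) had the same direction there, and none of the 41 others was called in the opposite direction. The difference between lines was not shown to depend on the compound: 0 of 18405 genes were called for the interaction by edgeR's quasi-likelihood test, with 2131 at an unadjusted p below 0.05 and a lowest adjusted p of 0.0812. Calls made from replicates 1 and 2 alone had the same direction in the replicate 3 pair for 10941 of 11833 genes (92.5%). Leaving out SKOV3 replicate 3 left 6060 genes higher and 5858 lower.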

How the data were processed

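Libraries were RNA-seq of CAOV3 and SKOV3 cells. The deposited values are raw counts per gene, made by the authors; STAR, DESeq2, GRCh38 and hg38 are named in the submitters' processing notes, with no version or role. Which program counted reads, whether by strand, and with which annotation was not stated in the labels. The tables were joined on gene identifier (58825), of which 58472 were named from a gene name table and 345 from GENCODE 29; 7 columns were not used. Positions are those of GENCODE 29 on GRCh38.

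Counts were fitted with edgeR 4.0.16 in R 4.3.3 (filterByExpr with a minimum count of 10, TMM scaling, robust quasi-likelihood fit), with library set and line as terms and Benjamini-Hochberg adjustment over all 16940 genes tested. The standard error is the absolute log2 fold change divided by the square root of F. Alternatives used limma 3.58.1 and DESeq2 1.42.0. A gene with 0 counts in one line has a bound from 3 counts over the group, and one with few counts a ratio with a 95% counting interval. OVCAR-3 and GSK-J4 levels are on a scale set over 15 libraries. The members and gene lists were chosen with earlier results of these data known. Named genes are 10 fixed ones, the 12 highest and 12 lowest protein-coding calls with at least 20 CPM, the 3 at each end of each list with at least 2 CPM, and the 10 highest of the genes found in each line only; other list members were named after their values were seen. Replicates 1 and 2 of a line differed by more than sampling noise. Some genes and a list are not reported here.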

Additional observations from a re-analysis of the deposited data

How the results depend on the processing

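The main counts, 5500 genes higher and 5416 lower in CAOV3, stayed within 1.5 times under another scaling, DESeq2, voom, no filter on low counts and no set term. With a 2-fold null in edgeR they were 2949 and 2524. Leaving out 1 replicate of both lines or 1 library gave 3587 to 6060 higher and 3467 to 5999 lower genes; fewer libraries were fitted. Genes found in CAOV3 only numbered 207 to 226 without a replicate or SKOV3 replicate 3, and 415 with a minimum of 1 CPM. Genes found in SKOV3 only numbered 112 to 149 without one, 57 with a minimum of 10 CPM and 266 with 1 CPM. The removal of SKOV3 replicate 3 alone was chosen after seeing the data. With a replicate block in place of the set term, 4940 genes were higher and 4918 lower; the labels do not pair the libraries, and same-numbered libraries correlated at 0.022, 0.003 and 0.051 in their deviations. Of the 234 genes named by rule, mostly chosen for being called, none reversed direction under any alternative run. Genes named after their values were seen are not all in this set, and KRT19, outside it, changed sign without SKOV3 replicate 3. Of the 234, 26 were no longer called without replicate 1 and 19 without replicate 2 of both lines. In each case ACACA, ACLY, BUB1B, GCLM, KDM6A, KDM6B, KEAP1, MTAP, SLC39A10 and WT1 were among them. Depth limits genes near the floor of 3 counts, such as WT1 in CAOV3.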
